A study of Mus musculus with 8 samples.

Results

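Immediate early genes were examined in ribosome-bound RNA of Müller cells, glia that span the whole retina, in mice with oxygen-induced retinopathy at postnatal day 14. The members were the table's rows for 10 gene symbols, Fos, Fosb, Jun, Junb, Jund, Egr1, Atf3, Btg2, Ier2 and Klf6, and 9 of them were measured among 12339 genes. The expression of Fosb was not analysed here, and of this gene only the promoter was read. The groups were 4 libraries from mice in which Nrf2 was conditionally deleted in Müller cells (cKO) and 4 wild-type (WT) libraries, numbered 1, 3, 4 and 5 in each. All 8 were RiboTag pull-downs from retina, in which a tagged ribosomal protein lets the ribosomes of chosen cells be captured with their RNA. All came from the same model, in which pups are kept in high oxygen and then returned to room air, so that the inner retina becomes short of oxygen. The labels name no Cre driver, deleted exon, sex or litter, nor whether a library was 1 animal. The p-values therefore rest on the spread among 8 libraries, which may be partly technical.

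Immediate early genes are switched on within minutes by growth factors, calcium, injury or stress, without the need for new protein, and their RNAs are short-lived. Kinases of the MAP kinase family act on factors such as SRF with its Elk partners and CREB, which sit ready on the promoters. Fos and Jun proteins pair through leucine zippers into AP-1, and other members are zinc finger factors or regulators of RNA decay and growth. In the retina, Fos and Egr1 are known to be induced in Müller glia by growth factors and injury.

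Values are FPKM, that is, fragments scaled to transcript length and library size, and a difference is cKO minus WT on the scale of log2(FPKM + 0.5). Over the 12339 genes the libraries' FPKM added up to 410581 to 448130, and the number of fragments behind a value is not given. Nfe2l2, the gene of Nrf2, was at 12.7, 16.5, 14.8 and 10.4 FPKM in cKO 1, 3, 4 and 5, against 17.5, 18.8, 23.1 and 17.5 in WT 1, 3, 4 and 5. Every cKO value lay below every WT value (difference −0.50, two-sided p = 0.0286 by exact permutation, which is the minimum with 70 assignments). Libraries of equal number deviated together, with correlations from 0.261 to 0.591, against −0.479 to 0.211 for unequal numbers. Limma was therefore fitted both without and with the number as a block. The labels do not say what a shared number means, so the pairs named below are inferred from these same data. Xist was at 0.0863 and 0.00505 FPKM in cKO 4 and cKO 5 and between 25.0 and 72.1 FPKM in the other 6 libraries. Low Xist thus occurred in cKO alone, so in those libraries it cannot be told apart from genotype. Markers of Müller cells were abundant, summing to between 6393 and 8968 FPKM over 9 genes in cKO and between 6220 and 10327 in WT. The 7 rod markers summed to between 2821 and 4199 FPKM in cKO and between 2548 and 4176 in WT, so RNA of rods was also present. None of the 7 microglial markers was measured, and of the 5 endothelial ones only Kdr was. In such bulk samples, fewer cells of a type and less RNA per cell cannot be told apart.

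All 9 measured immediate early genes had a higher mean in cKO than in WT, by 0.15 to 0.50 (log2), which is 10.7% to 41.4%. Across all genes 50.7% had a higher mean in cKO, and the median difference was 0.0036, against 0.29 for the 9. Every gene in the table averaged above 2 FPKM over the 8 libraries. Atf3 averaged 1.97 FPKM in WT and 2.46 in cKO, so it clears that floor only through cKO. Its direction is therefore not independent of its presence in the table. Of the 9, 3 were higher in cKO in all 4 pairs (Btg2, Jun and Jund), as were 16.7% of all genes. Only Btg2, which encodes an antiproliferative protein that recruits a deadenylase to mRNA, passed the test. It was called with the replicate block (adjusted p = 0.0216) and not without it (adjusted p = 0.453). Without the block 0 of the 9 passed, where 0 of 12339 genes did (0%). Before adjustment 1310 genes (10.6%) had a p under 0.05 in limma without the block, 3.95% of all genes in the higher direction, and Btg2 was the only member among them. With the block 1 of the 9 passed, where 10.6% of all genes did and 2.99% were called higher. Before adjustment 5 of the 9 had a p under 0.05 in that fit, as had 28.4% of all genes. In Fos, Jund, Egr1, Atf3 and Ier2 the log2 SD between WT libraries exceeded the difference.

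**Figure D1:**
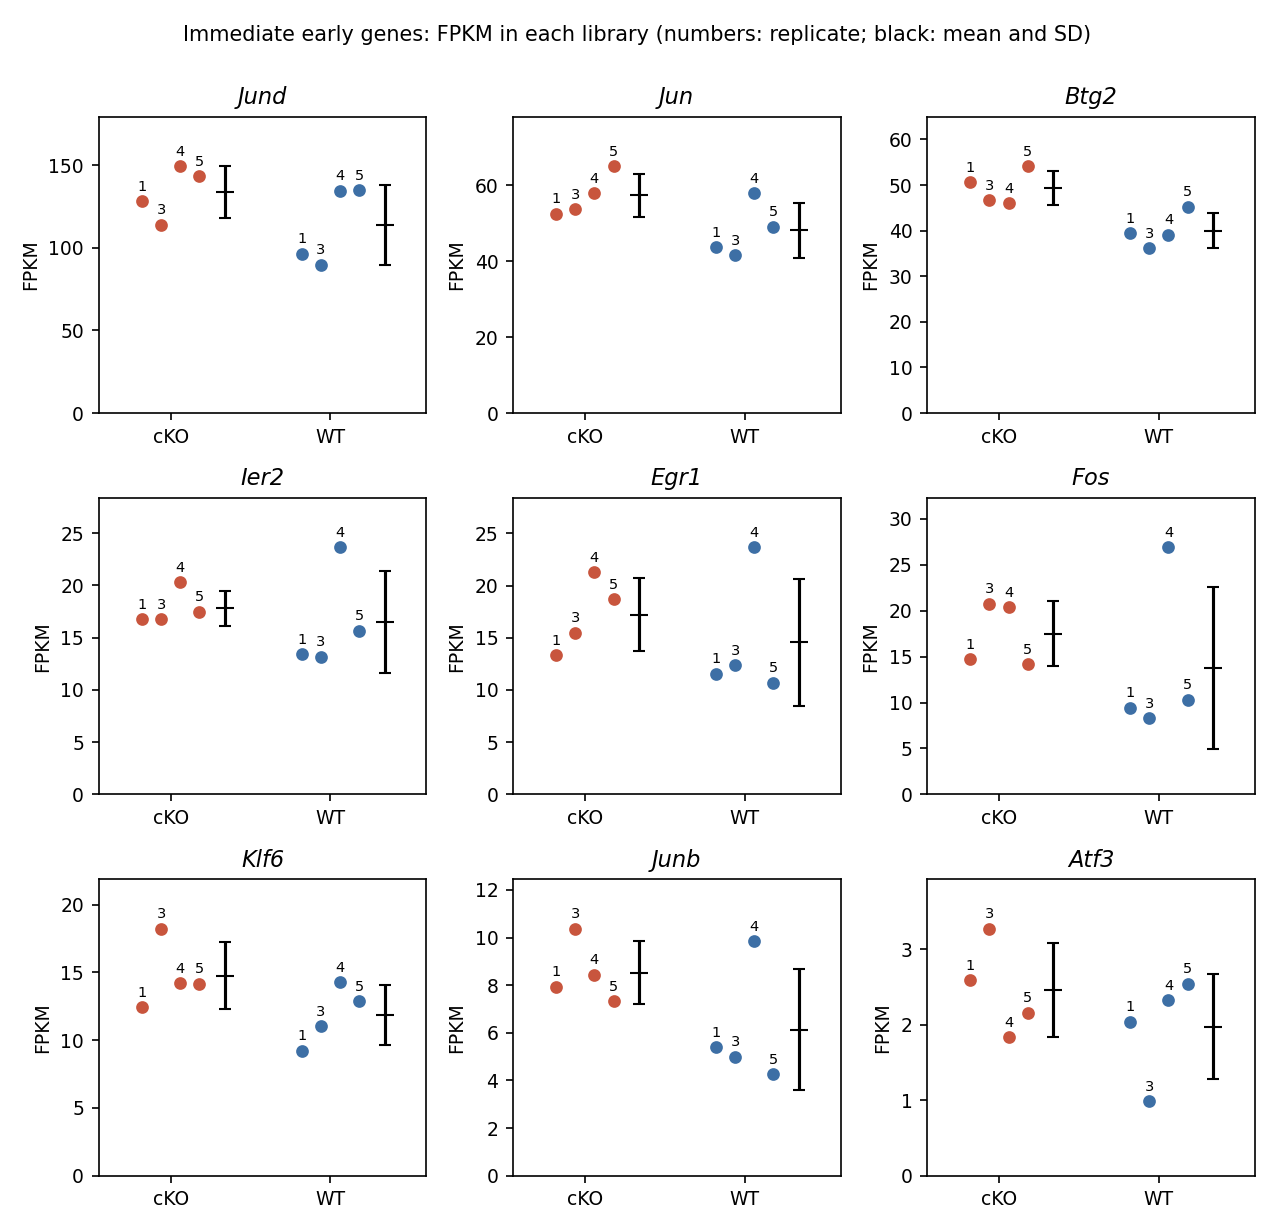
FPKM of the 9 immediate early genes in each library (points, numbered by replicate), with the mean and SD of 4 libraries per group in black, cKO left and WT right, each panel with its own axis from 0. In Btg2 the groups do not overlap, while in Fos, Egr1 and Ier2 the library WT 4 lies above all cKO libraries.

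The genes lay on very different levels in the same libraries. Since FPKM is scaled to length, levels can be set against each other, as far as the lengths used hold, which are not given. The deposited locus of Jun spans 118285 bases and the annotated gene 3189, and that of Junb 1809 and 4235. In WT the order of the mean levels was Jund (114 ± 24.2 FPKM, SD, n = 4), Jun (48.1 ± 7.28), Btg2 (40.0 ± 3.81), Ier2 (16.5 ± 4.91), Egr1 (14.6 ± 6.10), Fos (13.7 ± 8.81), Klf6 (11.8 ± 2.20), Junb (6.13 ± 2.53) and Atf3 (1.97 ± 0.692). The WT ranges of neighbours in this order were separate between Jund and Jun, between Btg2 and Ier2 and between Junb and Atf3, and overlapped elsewhere. Jund, the Jun gene known for steady expression in resting cells, was thus at 2.37 times the level of Jun, and the ranges of the inducible genes Fos, Egr1, Klf6 and Ier2 overlapped. Atf3 lay near the lowest levels of the table, in which each gene averaged above 2 FPKM over the 8 libraries.

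Fos, the inducible partner in AP-1, which cannot pair with itself, is on GRCm38 chromosome 12, 85473890 to 85477273, plus strand (ENSMUSG00000021250). It was at 14.7, 20.8, 20.4 and 14.2 FPKM in cKO 1, 3, 4 and 5, against 9.46, 8.29, 26.9 and 10.3 in WT 1, 3, 4 and 5. WT 4 was above every cKO library, and the other 3 WT libraries were below every cKO library. The means were 17.5 ± 3.55 FPKM in cKO and 13.7 ± 8.81 in WT (SD, n = 4 each). The difference of 0.48 had a 95% interval from −0.23 to 1.19 (limma adjusted p = 0.564) and, with the block, from −0.029 to 0.996 (0.197). Without WT 4 it was 0.85 (adjusted p = 0.301), and with the block and without pair 4 it was 0.78 and passed (adjusted p = 0.0477). That fit called 4.25% of all genes, and 0.681% as higher. The block fits without pair 1, 3 or 5 gave 0.44, 0.22 and 0.50 and did not call Fos (limma adjusted p = 0.403, 0.519 and 0.297).

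The 3 Jun genes encode the proteins that pair with Fos or with each other. Junb, on chromosome 8, was at 7.93, 10.4, 8.44 and 7.32 FPKM in cKO 1, 3, 4 and 5, against 5.40, 5.0, 9.86 and 4.27 in WT 1, 3, 4 and 5. As in Fos, 3 of the WT libraries lay below all cKO libraries, and WT 4 lay within the cKO range. Junb had the largest mean difference of the 9 genes, 0.50 (SE 0.23, 95% interval −0.0020 to 1.001, limma adjusted p = 0.472, and 0.115 with the block). It passed with the block without pair 4 (0.74, adjusted p = 0.0331). The block fits without pair 1, 3 or 5 gave 0.49, 0.34 and 0.43 and did not call Junb (limma adjusted p = 0.267, 0.319 and 0.249). Jun, an intronless gene on chromosome 4, 95049034 to 95052222, was at 52.6, 53.7, 57.99 and 65.1 FPKM in cKO, against 43.7, 41.7, 57.98 and 49.2 in WT, in the same order of numbers. It was higher in cKO in all 4 pairs, but in pair 4 by 0.00025 (difference 0.26, adjusted p = 0.476, and 0.0788 with the block). Jund, intronless and on chromosome 8, was at 128, 114, 149.6 and 143 FPKM in cKO, against 96.4, 89.8, 135 and 135 in WT. Its groups overlapped, as cKO 1 and cKO 3 lay below WT 4 and WT 5, while each pair differed in the same direction, by 0.09 to 0.41 (difference 0.25, adjusted p = 0.549, and 0.0708 with the block). An annotated antisense gene overlaps Jun (Junos) and another Jund, and Prdx2 overlaps the annotated span of Junb on the other strand. The table's own locus for Jun runs on to 95167318, beyond the annotated gene. The libraries were directional, but whether counting used the strand is not given in the sources used here.

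Atf3, a leucine zipper factor induced by many stresses, is on chromosome 1, 191170296 to 191218039. It was at 2.59, 3.27, 1.84 and 2.16 FPKM in cKO 1, 3, 4 and 5, against 2.04, 0.983, 2.33 and 2.55 in WT 1, 3, 4 and 5. The groups overlapped almost fully, and the mean difference of 0.29 (95% interval −0.30 to 0.88, limma adjusted p = 0.668) came from pair 3, which differed by 1.35, and pair 1, by 0.28. Pairs 4 and 5 differed by −0.27 and −0.20. With the block and without pair 3 the sign turned (−0.063, adjusted p = 0.880).

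The zinc finger genes were Egr1, a mediator of growth factor and calcium signals, and Klf6, a Krüppel-like factor linked to injury and to repair programmes. Egr1, on chromosome 18, 34859823 to 34864984, was at 13.3, 15.5, 21.3 and 18.7 FPKM in cKO 1, 3, 4 and 5, against 11.5, 12.4, 23.7 and 10.7 in WT 1, 3, 4 and 5. The 3 WT libraries other than WT 4 again lay below all cKO libraries, and WT 4 above them (difference 0.29, 95% interval −0.25 to 0.82, limma adjusted p = 0.642, and 0.213 with the block). Without WT 4 the difference was 0.54 (adjusted p = 0.304), and it was 0.055 when cKO 4 and cKO 5, the libraries low in Xist, were dropped. Klf6, on chromosome 13, was at 12.4, 18.2, 14.2 and 14.2 FPKM in cKO, against 9.21, 11.0, 14.3 and 12.9 in WT. Its groups overlapped, with cKO 3 highest and WT 1 lowest (difference 0.31, 95% interval −0.04 to 0.66, adjusted p = 0.489, and 0.135 with the block).

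Ier2, an intronless gene of a small nuclear protein on chromosome 8, was at 16.8, 16.8, 20.3 and 17.5 FPKM in cKO 1, 3, 4 and 5, against 13.4, 13.2, 23.6 and 15.7 in WT 1, 3, 4 and 5. The pattern was that of Egr1, with WT 4 above and the other WT libraries below all of cKO. It had the smallest mean difference of the 9, 0.15 (95% interval −0.24 to 0.53, limma adjusted p = 0.744, and 0.390 with the block), and 0.33 without WT 4.

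Btg2 (ENSMUSG00000020423; GRCm38 chromosome 1, 134075170 to 134079120, minus strand) was at 50.6, 46.7, 46.1 and 54.2 FPKM in cKO 1, 3, 4 and 5, against 39.4, 36.2, 39.1 and 45.3 in WT 1, 3, 4 and 5. It was the only member in which every cKO value lay above every WT value, which held in 2.06% of all genes (the reverse held in no member and in 2.28% of all genes), and WT 4 was not high in it. The means were 49.4 ± 3.79 FPKM in cKO and 40.0 ± 3.81 in WT (SD, n = 4 each). The difference of 0.30 (23.4%) had a 95% interval from 0.09 to 0.52 without the block and from 0.16 to 0.44 with it, and was 0.36, 0.36, 0.23 and 0.26 in pairs 1, 3, 4 and 5. With the block and 1 pair left out, the limma adjusted p was 0.0495 on dropping pair 5 and kept the call. It was 0.0827, 0.0850 and 0.0653 on dropping pairs 1, 3 and 4, and the call was lost.

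**Figure D2:**
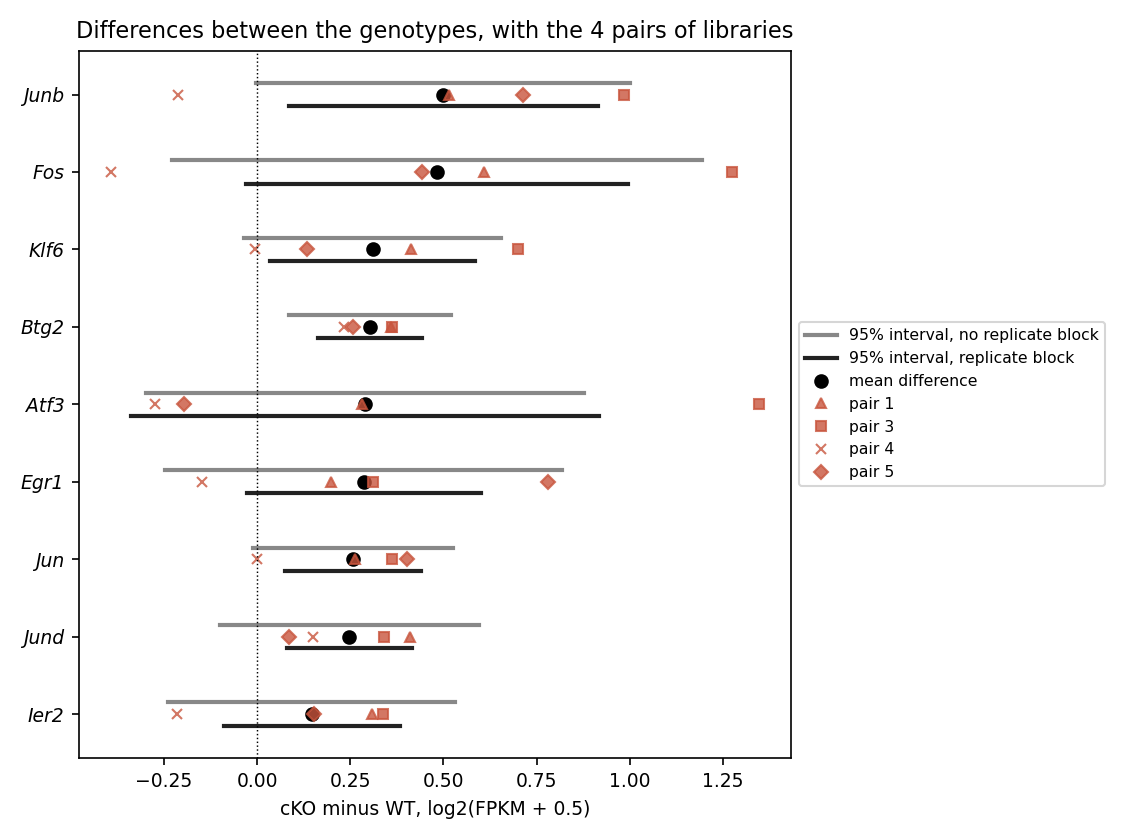
Mean difference of each gene (cKO minus WT, log2(FPKM + 0.5); black points), with its 95% interval in limma without (grey) and with (black) the replicate block and the difference in each of the 4 pairs (red symbols). All 9 means lie right of 0, and pair 4 lies left of 0 or close to it in all but Btg2 and Jund.

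The promoter of Btg2 is shown because this gene alone was called and because, of the 8 promoters read, its was the only one with a full cAMP response element, the site that CREB and the ATF factors bind. The 250 bases before its RefSeq start (GRCm38.p6, chr1:134079156-134079405, minus strand) are printed 5′ to 3′, with the element TGACGTCA and 2 CCAAT motifs in capitals.
Btg2: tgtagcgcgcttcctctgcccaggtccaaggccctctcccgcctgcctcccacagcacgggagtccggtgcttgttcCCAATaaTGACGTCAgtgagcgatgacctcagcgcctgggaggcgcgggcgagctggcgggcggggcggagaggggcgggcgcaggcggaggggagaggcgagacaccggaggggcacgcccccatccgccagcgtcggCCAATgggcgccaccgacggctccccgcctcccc
The element lies at −166 to −159 from the start. Of 32851 RefSeq windows of 250 bases, 1.55% held TGACGTCA on either strand. Windows were read for 8 of the 10 named genes, all but Ier2 and Egr1. Their GC content was 47.6% in Jund and from 58.4% (Fos) to 73.2% (Btg2) in the others, against a median of 52.4% over all windows. The shares given here were not matched for it. Up to 1 mismatch to TGACGTCA occurred in 5 of these 8 windows, against 10.6% of all windows, and is shown for the other 4 with 16 flanking bases on each side where the window allows, and the match in capitals.
Fos (chr12:85473745-85473784, plus strand): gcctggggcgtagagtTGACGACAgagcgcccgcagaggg
Jun (chr4:95052244-95052283, minus strand): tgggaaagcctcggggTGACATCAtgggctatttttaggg
Klf6 (chr13:5861354-5861393, plus strand): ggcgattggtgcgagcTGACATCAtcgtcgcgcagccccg
Atf3 (chr1:191183334-191183359, minus strand): gaagctattaatagcaTTACGTCAgc
Jun and Klf6 held the same 8 letters. The RefSeq start used for Atf3 lay 34706 bases, and that for Jund 1210 bases, from the outermost start in GENCODE, so those windows belong to other start sites. The AP-1 motif TGANTCA was in 0 of the 8 windows (6.75% of all windows), the Egr motif GCGTGGGCG in 0 (0.536%) and the CArG box of SRF in 0 (1.47%). The core of the antioxidant response element, TGACNNNGC, to which Nrf2 binds with small Maf proteins, was in the window of Klf6 alone (10.2% of all windows). TATAAA was in the window of Fos alone (12.4%), and CCAAT in 4 of the 8 (33.8%). All were searched on both strands, and a match or its lack is a description of these letters, not of binding. Sites outside the 250 bases, and those of Egr1 and Ier2, were not read. Apart from the mismatch allowed in TGACGTCA, only these exact spellings were counted, so sites with other letters were missed.

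The library WT 4 stood apart in many of these genes. It was the highest WT library in 6 of the 9 genes, against 27.6% of all genes, and WT 3 the lowest in 6. In WT 4, Fos was at 2.84 times, Egr1 at 2.05 times, Junb at 1.97 times and Ier2 at 1.76 times the median of the other WT libraries, while Btg2 was at 0.992 times. A level above 1.5 times that median was found in these 4 genes and in 5.29% of all genes. The mean log2 value of the 9 genes was 4.29, 4.47, 4.46 and 4.39 in cKO 1, 3, 4 and 5, against 3.92, 3.80, 4.55 and 4.09 in WT 1, 3, 4 and 5. WT 4 was therefore above all cKO libraries and the other WT libraries below them. This mean differed by 0.37, 0.67, −0.10 and 0.31 in pairs 1, 3, 4 and 5, and by 0.31 over the groups. Leaving out WT 4, singled out here after its values were seen, gave 0.47. Every cKO value then lay above every remaining WT value in 6 of the 9 genes, Fos, Jun, Junb, Egr1, Btg2 and Ier2, as in 5.36% of all genes.

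Each of the 9 genes had a larger log2 SD in WT than in cKO, against 59.3% of all genes. The WT SD of Fos was 0.75 and its cKO SD 0.29, and the WT SD of Egr1 was 0.51 and its cKO SD 0.29. Among all 12339 genes the WT SD of Fos stood at percentile 98.3, that of Egr1 at 94.3 and that of Junb at 93.5, while Btg2 stood at 24.7. Without WT 4 the SD was larger in WT in 5 of the 9, against 49.7% of all genes.

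**Figure D3:**
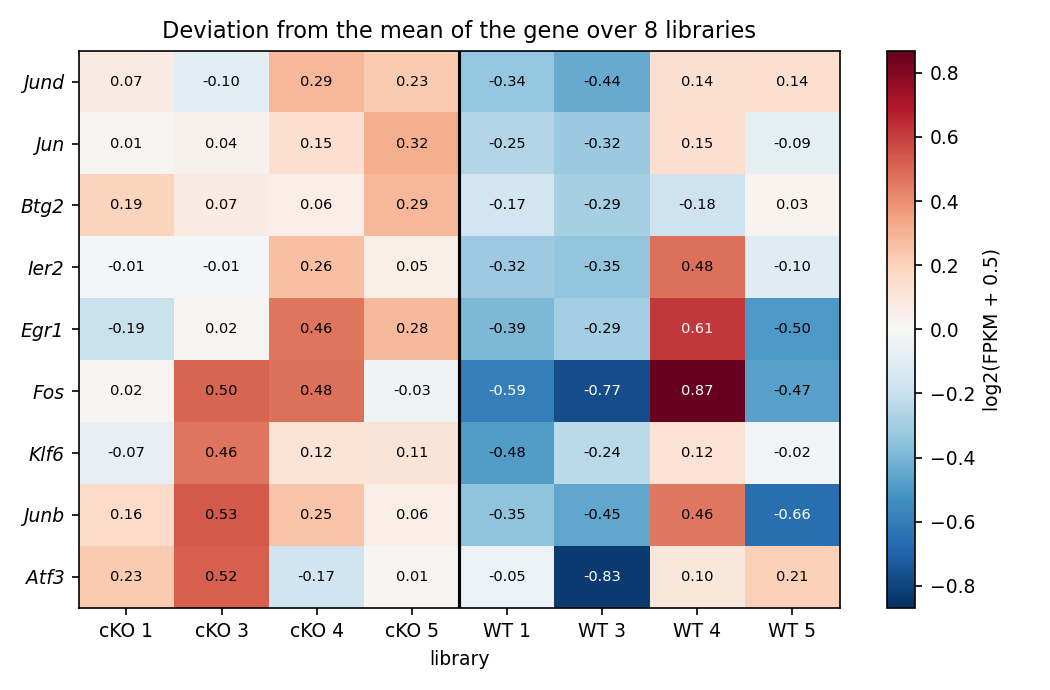
Deviation of each gene (rows, in order of WT level) from its own mean over the 8 libraries (columns), in log2(FPKM + 0.5), red above and blue below. WT 4 is red in all rows but Btg2 and reaches 0.87 in Fos, and WT 1 and WT 3 are blue throughout.

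Markers of cell types differed in WT 4 and between the groups as well. The 9 Müller cell markers summed to 10327 FPKM in WT 4 and between 6220 and 7594 in the other WT libraries, and cKO 4 was the highest cKO library with 8968. The 7 rod markers summed to 2548 FPKM in WT 4, against between 3221 and 4176 in the other WT libraries, and the 6 bipolar markers to 902 FPKM, against between 1084 and 1161. The 3 astrocyte markers measured summed to between 216 and 364 FPKM in cKO and between 94.3 and 241 in WT. The highest of these WT sums was in WT 4. The astrocyte list holds Gfap, which reactive Müller cells also make, and each such sum is weighted to its most abundant markers. The 2 pericyte markers measured, of 4 listed, summed to between 46.8 and 59.4 FPKM in cKO and between 31.0 and 40.1 in WT, without overlap between the groups. The 6 bipolar markers summed to between 1150 and 1345 FPKM in cKO, the lowest of these below the highest WT library. Sums were lower on average in cKO for ganglion cells (5 markers of 6, mean 54.2 FPKM in cKO and 73.7 in WT), amacrine cells (4 markers, 24.5 in cKO and 32.9 in WT) and cones (5 markers, 60.7 in cKO and 68.1 in WT), with overlap in each. The part of all these markers in the levels of the immediate early genes was not tested.

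The genes whose pattern over the 8 libraries was most like the mean of the 9 were Blvrb (Pearson r = 0.979), Tnfrsf12a (0.969), Pdia6 (0.963), Commd7 (0.962) and Cutc (0.962), out of 9741 genes compared. Spearman's rho was 1, 0.976, 0.833, 0.929 and 0.762 in the same order. These values describe the same 8 libraries and share their depth and cell mixture. Blvrb, a biliverdin reductase, was at 5.07, 5.47, 5.42 and 5.23 FPKM in cKO 1, 3, 4 and 5, against 4.33, 3.79, 6.11 and 4.62 in WT 1, 3, 4 and 5, with WT 4 highest and WT 3 lowest. Tnfrsf12a, the receptor of the cytokine TWEAK, was at 27.0, 36.0, 32.3 and 29.3 FPKM in cKO, against 17.0, 17.2, 38.0 and 25.8 in WT. With each group's mean removed, Blvrb, Pdia6, Tifa, Tnfrsf12a and Lix1l came first (r from 0.958 to 0.989).

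Other immediate early genes were higher in cKO by a smaller median. Of 47 listed, 28 were measured, 21 of them with a higher mean in cKO (50.7% of all genes), and the median difference of the 28 was 0.15. The rest had a lower mean in cKO, most of all Nr4a1 (−0.37), Sgk1 (−0.28) and Per1 (−0.17). Of the 28, 6 were higher in all 4 pairs (16.7% of all genes) and 2, Nr4a1 and Per1, lower in all 4 (19.5%). With the block Nfkbia alone rose, 0 fell and 27 did not pass, and without it 0 passed (limma, background 2.99% higher and 7.59% lower with the block). Nfkbia, the inhibitor of NF-kB, was at 17.9, 20.2, 17.9 and 16.7 FPKM in cKO 1, 3, 4 and 5, against 13.6, 13.1, 13.3 and 14.8 in WT 1, 3, 4 and 5 (0.39, adjusted p = 0.417, and 0.0302 with the block). Like Btg2, it had no overlap between the groups and no high value in WT 4. Gadd45b, a stress-induced growth arrest gene, was at 6.40, 9.89, 6.92 and 5.23 FPKM in cKO, against 3.36, 4.13, 7.22 and 2.77 in WT (0.69, adjusted p = 0.0564 with the block). As in Junb, WT 4 was the highest WT library and lay within the cKO range. Maff, a small Maf partner of Nrf2, averaged 3.88 ± 0.755 FPKM in cKO and 2.65 ± 0.939 in WT (SD, n = 4 each; 0.51, adjusted p = 0.186 with the block). WT 4 was the highest WT library in 19 of the 28.

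Of the 13 measured genes that dampen the response, out of 14 listed, all had a higher mean in cKO, as had 50.7% of all genes, and their median difference was 0.13. With the block 1 rose and 12 did not pass, where 2.99% of all genes rose. The 1 was Dusp5, a phosphatase that switches off ERK in the nucleus, at 22.4, 19.7, 21.8 and 24.1 FPKM in cKO 1, 3, 4 and 5, against 17.9, 16.04, 17.7 and 20.9 in WT 1, 3, 4 and 5 (0.27, limma adjusted p = 0.460, and 0.0379 with the block). Each pair differed in the same direction, and the groups overlapped through cKO 3 and WT 5. Nab1, a corepressor of Egr factors, averaged 6.74 ± 0.363 FPKM in cKO and 5.74 ± 0.367 in WT, without overlap (0.21, adjusted p = 0.188 with the block). Spry1, an inhibitor of receptor tyrosine kinase signalling, averaged 20.5 ± 0.882 FPKM in cKO and 17.8 ± 2.40 in WT (0.21, adjusted p = 0.132 with the block).

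Among the kinases and factors upstream of the response, few genes were called. Of 32 measured, out of 33 listed, 15 had a higher mean in cKO (50.7% of all genes) and the median difference was −0.0033. In the blocked fit 3 fell, 1 rose and 28 were not called, where 7.59% of all genes fell and 2.99% rose, so the share called was near that of all genes (10.6%). Mapk3, the kinase ERK1, was at 68.7, 62.5, 76.3 and 69.3 FPKM in cKO 1, 3, 4 and 5, against 52.4, 53.4, 67.8 and 55.5 in WT 1, 3, 4 and 5 (0.28, limma adjusted p = 0.460, and 0.0335 with the block). It was higher in each pair, and WT 4 was again the highest WT library. Mapk9, the kinase JNK2, which acts on Jun, averaged 23.2 ± 4.02 FPKM in cKO and 31.5 ± 6.18 in WT (−0.43, adjusted p = 0.00817 with the block). Crtc2, a coactivator of CREB, averaged 14.5 ± 2.80 FPKM in cKO and 19.5 ± 3.66 in WT (−0.41, adjusted p = 0.0276 with the block). Araf, a kinase that activates the ERK pathway, averaged 66.1 ± 8.55 FPKM in cKO and 78.5 ± 14.7 in WT (−0.24, adjusted p = 0.0464 with the block). These 3 fell in each of the 4 pairs. Elk3, an SRF partner, was at 0.30 (adjusted p = 0.0835 with the block).

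Genes of mRNA decay, among them the CCR4-NOT deadenylase that Btg2 binds, did not pass in either fit (15 measured of 16, median difference 0.07, limma). Over all genes 10.6% passed with the block and 0% without it. At an unadjusted p under 0.05 without the block there was 1 of the 15, against 10.6% of all genes. It was Cnot1, the scaffold of CCR4-NOT, at 44.8 ± 6.25 FPKM in cKO and 57.4 ± 10.5 in WT (SD, n = 4 each; −0.35, adjusted p = 0.0579 with the block). Cnot2 and Elavl1 differed by 0.21 and 0.16 (adjusted p = 0.143 and 0.209 with the block). Of the leucine zipper partners of AP-1, 15 of 18 were measured, of which 2 fell, 1 rose and 12 were not called in the blocked fit (median difference 0.08), where 7.59% of all genes fell and 2.99% rose. Atf4, a stress factor, was at 112, 94.1, 108 and 108 FPKM in cKO 1, 3, 4 and 5, against 88.7, 79.6, 89.3 and 91.1 in WT 1, 3, 4 and 5 (0.27, adjusted p = 0.0256 with the block). No cKO value lay below a WT value. Mafg, a partner of Nrf2, averaged 22.2 ± 5.90 FPKM in cKO and 29.5 ± 8.57 in WT (−0.39, adjusted p = 0.0296 with the block). The other that fell was Nfe2l2 (adjusted p = 0.0219 with the block). It is the gene targeted in cKO, so its fall is no result about the list.

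**Figure D4:**
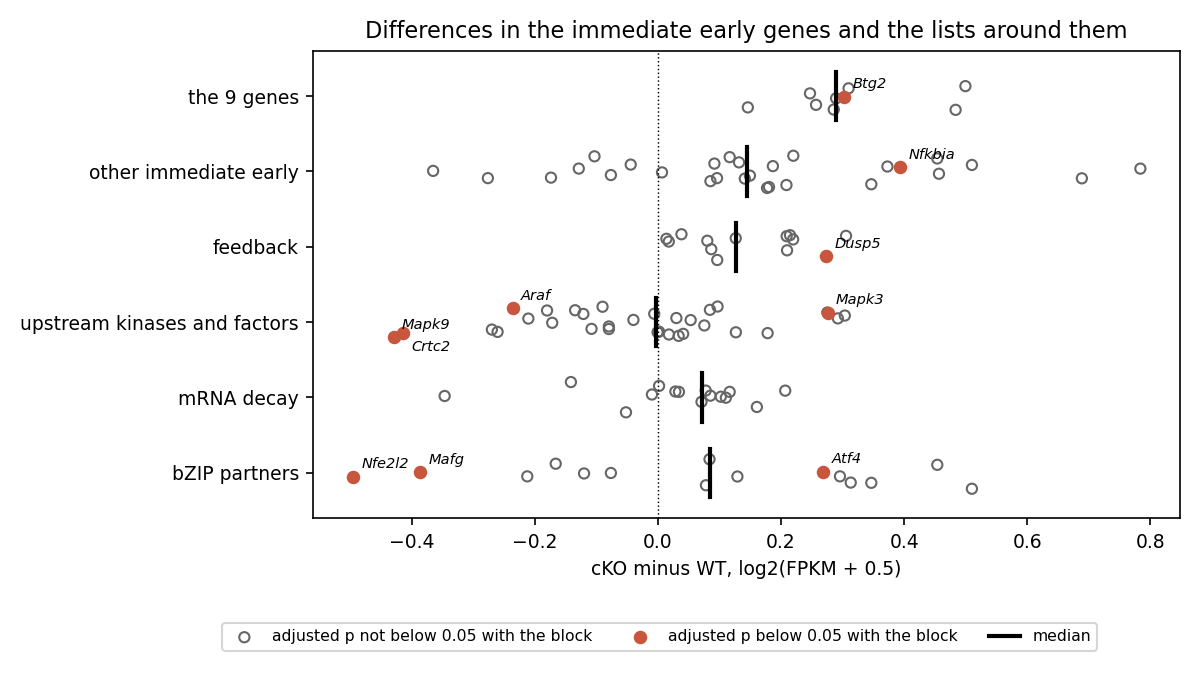
Difference of each measured gene (cKO minus WT, log2(FPKM + 0.5)) in the 9 immediate early genes and in the 5 lists around them, filled where the adjusted p was below 0.05 in limma with the replicate block, with the median of each list as a bar. The 9 genes and the 13 feedback genes all lie above 0, while the 32 upstream genes lie on both sides with a median of −0.0033.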

How the data were processed

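The authors deposited 1 table of FPKM with 1 column per library; the unit comes from the table's name, per the labels and files. GRCm38 and mm10, and the tools STAR and edgeR, are named with no version or role, per the submitters' processing notes; the counting tool, strand setting and gene filter are not given in the sources used here. Some values lay far below that of 1 fragment (the smallest above 0 was 4.39e-230), as model-based estimates do, so whole fragments were not recovered, the depth is unknown and no counting interval is given. Genes were matched by symbol, positions come from GENCODE mouse release 21 (GRCm38) and promoter windows from RefSeq (GRCm38.p6).

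Differences of log2(FPKM + 0.5) were tested with limma 3.58.1 in R 4.3.3 (eBayes with a trend, two-sided, Benjamini-Hochberg adjustment over 12339 genes, threshold 0.05). Replicate numbers were used as a block in a second fit, because libraries of equal number correlated at 0.261 to 0.591 after each group's mean was removed, and those of unequal number at −0.479 to 0.211. The block left 3 residual degrees of freedom, against 6 without it. The scripts were tested on simulated data. The members and lists were chosen with earlier results of these data known.

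Named beyond the members were, from each list, genes past the threshold in either fit and the 3 with the smallest p, and the 5 genes with a mean of at least 5 FPKM most correlated with the members' mean. Nr4a1, Sgk1 and Per1 were named as well, for the lowest differences among the other immediate early genes. Other settings were pseudocounts of 0.1 and 1, a minimum mean of 5 FPKM, 3 further scalings, array weights, robust or untrended eBayes, omission of each library or pair, and 0.1 as the threshold.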

Additional observations from a re-analysis of the deposited data

Results flagged for a closer look

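In 2 of the 9 genes 1 WT library stood far from the other 3. Fos was at 26.9 FPKM in WT 4 and between 8.29 and 10.3 in the other WT libraries, a gap of 0.891 of the group's range. Egr1 was at 23.7 FPKM in WT 4 and between 10.7 and 12.4 in the other WT libraries, a gap of 0.868 of the range. Both gaps, taken on FPKM, exceed Dixon's 95% critical value for 4 samples. On the scale of log2(FPKM + 0.5), used for the differences, both gaps fall short of that value. There Fos was at 4.78 in WT 4 and between 3.14 and 3.44 in the other WT libraries. Egr1 was at 4.59 in WT 4 and between 3.48 and 3.69 in the others. Both flags thus depend on the scale. Chance gives about 1 such library in 20 groups, and 20 groups were examined, of genes that are not independent.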

How the results depend on the processing

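Over all genes 0 passed without the block, and 1 with library weights or in the 6 libraries with Xist, a setting added after seeing the data. With the replicate block 1305 passed, 1064 with quantile and 1300 with median-of-ratios scaling added, and 402, 606, 524 and 821 without pair 1, 3, 4 or 5. Without 1 library and without the block 0 passed. Of the members, 0 passed without the block, 1 in each of the 3 block fits over all libraries, and between 0 and 2 without 1 pair. The same block fits called 1, 2 and 1 of the other immediate early genes (0 to 2 without 1 pair), 4 upstream genes (1 to 2), 1 feedback gene (0 to 1), and 3, 2 and 3 leucine zipper partners (0 to 1). The mRNA decay list stayed at 0 in all settings. The mean difference of the members was between 0.22 and 0.47 without 1 library, and 0.19 to 0.45 with the block and without 1 pair. In the 6 libraries with Xist that mean was 0.29, with the lowest differences in Egr1 (0.055), Ier2 (0.064), Jund (0.11) and Jun (0.15) and the highest in Atf3 (0.52) and Junb (0.60). Nfe2l2 differed by −0.59 to −0.38 without 1 library (exact permutation p = 0.0286 to 0.0571). Of 233 single-gene settings 226 changed neither direction nor call, 6 gained a call (Btg2 with the block, Fos and Junb without pair 4) and 1 reversed, Atf3 with the block and without pair 3 (−0.063). Equal-sum and quantile scaling left all 9 differences above 0. The number of fragments is unknown, so counting error, largest for Atf3, could not be given.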
